A study of Mus musculus with 62 samples.

Results

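The 80 genes described here are the nuclear-encoded subunits of the mitochondrial respiratory chain and ATP synthase. These genes were measured by RNA sequencing in white adipose tissue of mice injected with melanoma cells or mock injected. They were taken from the 47643 symbols of the deposited expression table by their names: symbols of the Nduf, Sdh, Uqcr, Cox4 to Cox8 and Atp5 families whose mean over all 62 libraries reached 1 TPM. TPM is a transcript abundance corrected for gene length and scaled to the same sum in every library. Of 88 symbols with such names, 4 pseudogene symbols, Cox7a1 and Cox8b (left out by name) and Cox7b2 and Cox8c (under the minimum) were not members. By complex, 35 members belong to complex I, 4 to complex II, 8 to complex III, 15 to complex IV and 15 to complex V. A further 3 (Cox7a2l, Atp5s and Atp5sl) associate with the complexes. All 80 were abundant enough to be tested in every comparison.

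The respiratory chain sits in the inner mitochondrial membrane, where complexes I to IV pass electrons from NADH and succinate to oxygen and complexes I, III and IV pump protons. Complex V (ATP synthase) uses the returning protons to make ATP. Most subunits are encoded in the nucleus and imported, and a small core of complexes I, III, IV and V is encoded in the mitochondrial genome. White adipocytes hold few mitochondria, whereas thermogenic (brown or beige) adipocytes hold many and let protons return through Ucp1, the uncoupling protein that turns the gradient into heat.

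The tissue came from female mice 2 months old at 2, 4, 6 and 8 weeks after injection of melanoma cells that cause cachexia, a wasting of fat and muscle (CAC), of melanoma cells that do not (NCAC), or after a mock injection (Con). The melanoma lines are not named in the labels. Each of the 12 groups has 5 libraries, except CAC at 8 weeks with 7, which makes 62. The series record names the mice as NCI Ath/nude, an athymic stock that lacks normal T cells, but the samples are tagged with the strain C57BL6/J. The treatment tag of every sample names cachectic melanoma cells, so the groups were taken from the sample descriptions. The replicates were taken as separate animals, as the labels call them biological.

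Read depth is unknown, since only TPM were given. Between 11783 and 14470 genes reached 1 TPM in a library. The adipocyte markers were high in all libraries, and no adipocyte marker was at 0 throughout. In 16 libraries the uroplakins Upk1a, Upk1b, Upk2 and Upk3a, membrane proteins of the bladder lining, summed to more than 100 TPM. These include 3 of the 5 CAC libraries at 6 weeks, 3 of the 7 at 8 weeks, 1 Con library at 8 weeks and none of the other groups at these 2 times. Skeletal muscle transcripts also varied widely: Acta1, skeletal muscle actin, ranged from 2.66 to 1615 TPM among the Con libraries at 6 weeks. Each of the 5 calls of a member is therefore also given without the libraries with uroplakins. Calls of other genes are given with all libraries.

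Promoter sequence was at hand from RefSeq (mouse build GRCm38.p6) for 63 of the 80 members, and 250 bases before each start were searched on both strands. Nuclear genes of the respiratory chain are textbook targets of the transcription factors NRF1 and GABP, the latter of the ETS family. An NRF1-type motif, GCGCA and GCGC with any base between them, was found in 13 of the 63 (20.6%) and in 4.23% of all 27025 genes with such a sequence. CCGGAAG, an ETS-type motif, was found in 12 (19.05%) and in 7.83% of all. CACGTG, an E-box, was found in 5 (7.94%) and in 6.86%. CCAAT was found in 27 (42.9%) and in 37.5%. By complex, the NRF1-type letters stood in 6 of 31 windows of complex I, 2 of 3 of complex II, 0 of 5 of complex III, 1 of 10 of complex IV and 4 of 13 of complex V.

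The windows of 3 members are shown up to the annotated first exon, with every match that lies in them in capitals. Cox6a1, a complex IV subunit of most tissues, is an example with NRF1-type letters. Atp5b, the catalytic subunit of ATP synthase, had the highest mean level of all 80. Atp5g1 is the ATP synthase gene that rose in a comparison below. They lie at chr5:115348982-115349208 (minus strand), chr10:128083057-128083272 (plus strand) and chr11:96075671-96075881 (minus strand).
Cox6a1: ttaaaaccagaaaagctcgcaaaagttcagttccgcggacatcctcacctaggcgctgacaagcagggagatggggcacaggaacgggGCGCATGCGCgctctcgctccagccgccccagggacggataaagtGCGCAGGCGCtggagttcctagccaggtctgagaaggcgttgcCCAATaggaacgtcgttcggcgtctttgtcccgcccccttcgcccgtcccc
Atp5b: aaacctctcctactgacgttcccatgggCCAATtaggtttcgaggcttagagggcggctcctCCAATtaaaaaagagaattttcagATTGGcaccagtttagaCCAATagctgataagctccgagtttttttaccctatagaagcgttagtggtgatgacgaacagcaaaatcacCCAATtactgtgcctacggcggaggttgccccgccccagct
Atp5g1: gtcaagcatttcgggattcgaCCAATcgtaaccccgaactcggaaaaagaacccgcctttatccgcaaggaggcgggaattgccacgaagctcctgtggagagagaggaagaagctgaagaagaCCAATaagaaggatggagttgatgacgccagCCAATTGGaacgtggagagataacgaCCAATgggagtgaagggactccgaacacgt

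The capitals mark the NRF1-type letters (GCGCATGCGC and GCGCAGGCGC) of Cox6a1, 162 and 117 bases before its start, and CCAAT or its reverse complement ATTGG in all 3. Atp5b and Atp5g1 each hold 5 of the latter, and in Atp5g1 a CCAAT and an ATTGG overlap. An ETS-type match 16 bases before the start of Cox6a1 lies in the first exon and is not shown. An E-box begins 44 bases before the RefSeq start of Atp5g1, across the edge of the first exon, and is not shown. These are matches of letters, with no measurement of binding.

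Levels spanned a wide range between members and a narrow one between groups. Atp5b averaged 1053 TPM over the 62 libraries and Cox8a, a small complex IV subunit, 1037 TPM. The highest members of the other complexes were Ndufb9 of the membrane arm of complex I (654 TPM), Uqcr10 of complex III (595 TPM) and Sdha, the flavoprotein of succinate dehydrogenase (473 TPM). The lowest were the complex IV isoforms Cox6a2 (3.78 TPM), Cox4i2 (6.27 TPM) and Cox6b2 (8.11 TPM). The median member of complex IV stood at 321 TPM and that of complex I at 159 TPM.

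For 70 of the 80 members the highest of the 12 group means was less than 1.5 times the lowest. For 79 of 80 the spread of the group means was smaller than the spread between libraries of 1 group (SD of log2(TPM + 1), medians 0.12 and 0.21). The exception was Cox4i2, with 0.38 between groups and 0.31 within them. A difference of 2 times or more between group means occurred in 4 members, all minor isoforms of complex IV: Cox6b2 (2.12-fold), Ndufa4l2 (2.36-fold), Cox4i2 (2.51-fold) and Cox6a2 (207-fold, set by a few libraries). The steadiest member by this spread was Sdhc, a membrane anchor of succinate dehydrogenase, whose group means spread by 0.06.

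The 80 members together took between 1.63% and 2.78% of the TPM of a library. At 6 weeks they took 2.54% ± 0.19 (SD, n = 5) in CAC, 2.05% ± 0.28 (n = 5) in Con and 2.26% ± 0.19 (n = 5) in NCAC. At 8 weeks the shares were 2.30% ± 0.30 (n = 7), 2.08% ± 0.29 (n = 5) and 2.08% ± 0.22 (n = 5). The CAC mean was thus the highest at both times, and single libraries of the 3 arms overlapped. In whole tissue, fewer cells of a type and less RNA per cell cannot be told apart. The same order held in the complex I sum at 6 weeks, with 7182 ± 518 TPM in CAC, 5938 ± 784 in Con and 6590 ± 528 in NCAC. Complex V summed to 6556 ± 330, 5432 ± 602 and 5680 ± 432 TPM, and complex IV to 6540 ± 770, 5048 ± 634 and 5854 ± 646 TPM.

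**Figure D1:**
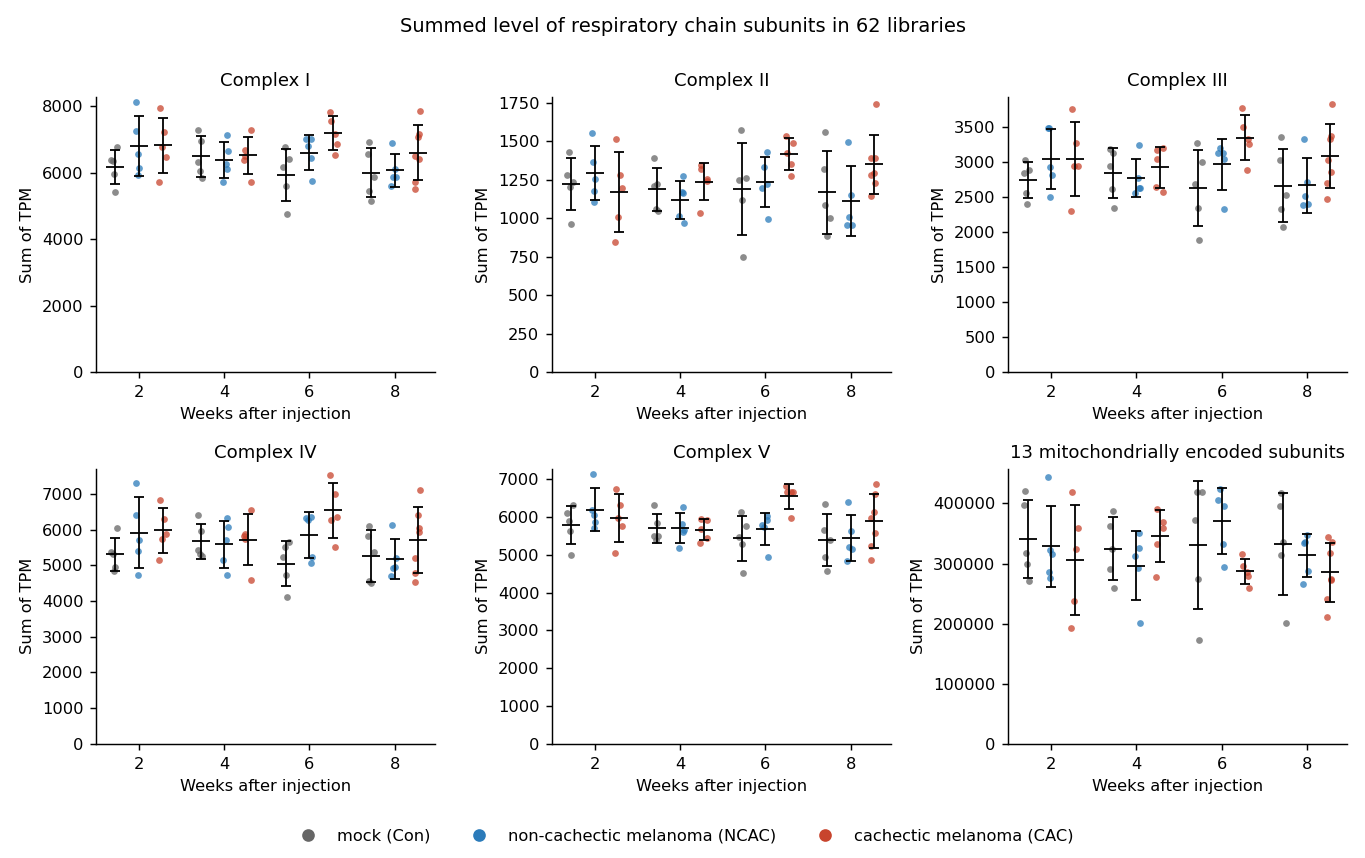
Summed TPM of the nuclear-encoded members of complexes I to V and of the 13 mitochondrially encoded subunits in each of 62 libraries (points), by weeks after injection and arm, with the mean and SD of each group (black). The CAC means at 6 weeks are the highest of that week in all 5 nuclear sums (7182 TPM for complex I) and the lowest in the mitochondrially encoded sum.

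The first comparison asks how CAC tissue differed from mock tissue as cachexia progressed. At 6 weeks 74 of the 80 members had a higher mean in CAC than in Con, against 45.2% of all genes tested. The median difference in log2(TPM + 1) was 0.27 over the members and -0.03 over all genes. With 1 library left out the median of the members ran from 0.20 to 0.31, and 71 to 75 members lay above 0. All 35 members of complex I, all 4 of complex II and all 8 of complex III lay above 0, with 14 of 15 of complex V and 11 of 15 of complex IV. The medians by complex were alike, from 0.24 in complex I to 0.31 in complex III. None of the 80 rose by the adjusted test and 1 fell (Cox4i2), where 0.357% of all genes were called in either direction and 0.048% were lower. At an unadjusted p under 0.05, 24 members were higher and 3 lower, beside 5.88% and 3.57% of all genes. The median 95% interval of a member reached 0.32 to either side of its difference, so a shift of this median size is within the error of a single gene.

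Uqcr10, a small subunit of complex III, had the largest positive difference of the members at 6 weeks. Its levels were 706, 634, 777, 785 and 876 TPM in CAC and 540, 608, 576, 413 and 376 TPM in Con. Every CAC library lay above every Con library, and the difference of 0.60 (SE 0.18) on the log2 scale did not pass the adjusted test (adjusted p = 0.244, limma). Atp5d, of the central stalk of ATP synthase, stood at 253 ± 21.5 TPM in CAC and 194 ± 12.6 TPM in Con, a difference of 0.38 (SE 0.12, adjusted p = 0.298).

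At 8 weeks 63 of 80 members had a higher mean in CAC than in Con, against 38.9% of all genes, with a median of 0.12 over the members and -0.08 over all genes. None rose and 1 fell (Ndufa4l2), beside 3.07% of all genes called and 1.99% called lower. Before adjustment 4 members were higher and 2 lower at a p under 0.05, beside 5.84% and 14.7% of all genes. Uqcr10 differed by 0.40 (SE 0.16, adjusted p = 0.169) and Atp5b by 0.21 (SE 0.16, adjusted p = 0.533).

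Within complex I the 7 nuclear-encoded core subunits, the conserved catalytic part of the enzyme, were set beside the 28 other subunits. The core subunits had a median difference between CAC and Con of 0.33 at 6 weeks and 0.20 at 8 weeks, and the other 28 had 0.23 and 0.06. Against NCAC the core medians were 0.23 and 0.31 and the others 0.07 and 0.01. All 7 core subunits lay above 0 in these 4 comparisons, and the comparisons of 1 week share their CAC libraries. Of the other 28, 28 and 19 lay above 0 against Con, and 21 and 14 against NCAC. In NCAC against Con at 8 weeks, 0 of 7 core and 19 of 28 other subunits lay above 0. None of the 35 was called in any comparison.

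All 4 subunits of succinate dehydrogenase, which feeds electrons from the citric acid cycle, had a higher mean in CAC than in Con at 6 weeks, and none was called. Sdha averaged 567 ± 39.7 TPM in CAC and 461 ± 149 TPM in Con at 6 weeks, a difference of 0.36 (SE 0.23, adjusted p = 0.711), and 0.33 (SE 0.18, adjusted p = 0.346) at 8 weeks. The iron-sulfur subunit Sdhb averaged 248 ± 21.2 and 217 ± 51.8 TPM at 6 weeks, and the anchor Sdhd 470 ± 40.4 and 387 ± 82.5 TPM. The other anchor, Sdhc, averaged 130 ± 8.82 and 125 ± 16.3 TPM, with an interval of its log2 difference from -0.22 to 0.35. Con libraries spread more widely than CAC libraries in all 4 genes. Con replicate 5 was the lowest of its group in each, at 252 (Sdha), 143 (Sdhb), 99.4 (Sdhc) and 256 TPM (Sdhd). For Sdhc the other Con libraries read 131, 143, 130 and 120 TPM, and the CAC libraries ran from 122 to 141 TPM.

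**Figure D2:**
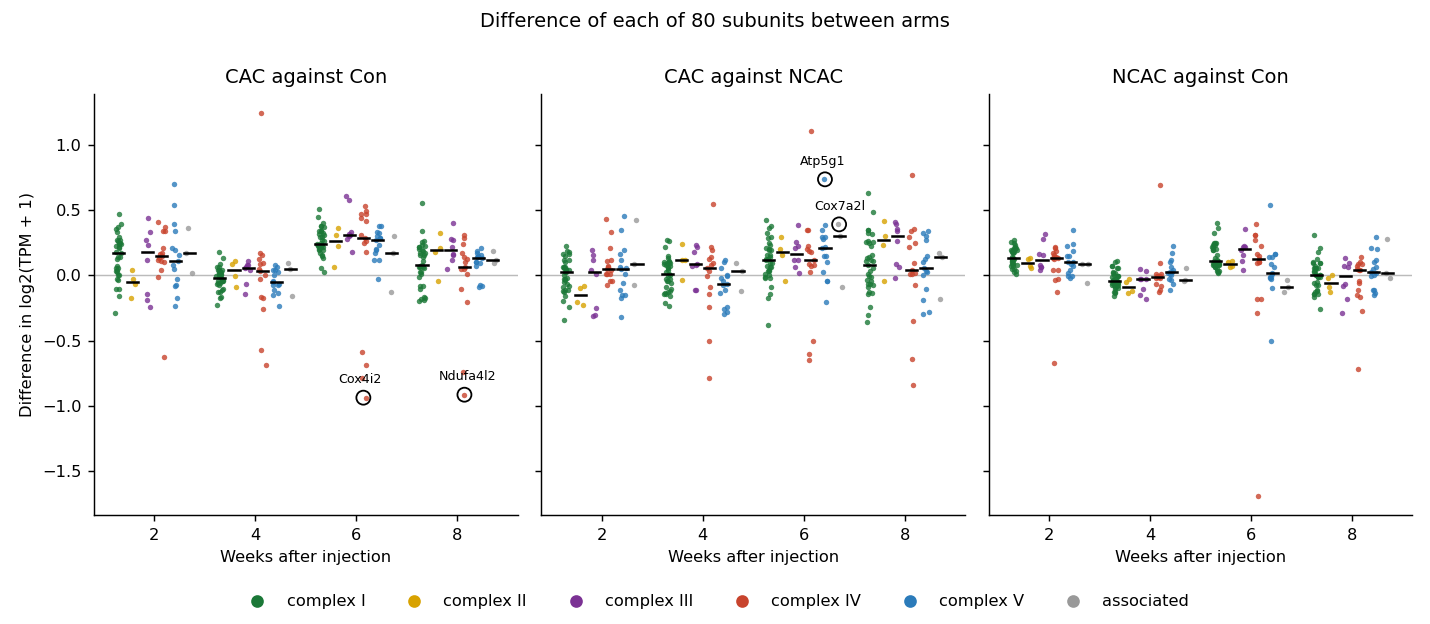
Difference in log2(TPM + 1) of each of the 80 members (points, coloured by complex) in 12 comparisons between arms, with the median of each complex as a black bar and called members ringed and named. In CAC against Con at 6 weeks 74 of 80 points lie above 0, and the low points of complex IV are minor isoforms such as Cox4i2 (-0.94) and Ndufa4l2 (-0.79).

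No member was called at 2 or 4 weeks, nor in NCAC against Con at any of the 4 times. In CAC against Con at 2 weeks 61 of 80 lay above 0 (median 0.14), beside 64.2% of all genes (median 0.08), and at 4 weeks 40 of 80 (median 0.00), beside 32.7% (median -0.08). By limma 0 members were called at either time, beside 0.00686% of all genes. At an unadjusted p under 0.05, 9 members were higher and 0 lower at 2 weeks, beside 1.83% and 1.62% of all genes. At 4 weeks 0 were higher and 2 lower, beside 0.652% and 2.13%.

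In NCAC against Con 72, 27, 67 and 44 of 80 members lay above 0 at 2, 4, 6 and 8 weeks (medians 0.12, -0.03, 0.11 and 0.00), beside 47.2%, 47.3%, 18.3% and 37.1% of all genes. By limma 0 members and 0% of genes were called at each time. At an unadjusted p under 0.05, 0, 0, 3 and 1 members were higher, beside 0.823%, 0.48%, 0.295% and 0.665% of all genes. At the same threshold 1, 0, 0 and 0 were lower, beside 0.782%, 0.309%, 1.11% and 0.576%. In CAC against NCAC 47 of 80 lay above 0 at 2 weeks and 43 at 4 weeks (medians 0.03 and 0.02), beside 64.9% and 36.8% of all genes, and 0 members and 0% of genes were called by limma. At an unadjusted p under 0.05, 1 and 0 members were higher at these times, beside 1.32% and 1.04% of all genes, and 0 and 2 lower, beside 2.31% and 3.4%. The comparisons with Con share the Con libraries of their week.

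Complex IV held the members that fell. Cox4i2 (chromosome 2, 152754173 to 152765037, GRCm38) encodes the minor isoform of subunit 4, known for its expression in lung and vascular cells and its induction by low oxygen. Its paralog Cox4i1 serves most tissues. At 6 weeks Cox4i2 read 3.57, 3.02, 3.67, 2.94 and 3.68 TPM in CAC and 7.45, 6.70, 7.21, 7.84 and 7.61 TPM in Con. All 5 CAC libraries lay below all Con libraries, and the gene fell by 0.94 on the log2 scale (SE 0.15, adjusted p = 0.0246). NCAC libraries read 5.63, 4.37, 10.3, 4.46 and 5.85 TPM, 4 of them below all of Con and 1 above. All 5 CAC libraries lay below all of NCAC too, with a difference of -0.65 (SE 0.20, adjusted p = 0.0738) that passed without NCAC replicate 3 (-0.47, adjusted p = 0.0460).

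The call against Con at 6 weeks depended on single libraries. The change lay between -0.97 and -0.90 in the 10 fits that left out 1 library. It remained called without Con replicate 2 (adjusted p = 0.0311) or Con replicate 5 (0.0128). It was lost without any other single library of these groups: Con replicate 1 (0.0986), 3 (0.0709) or 4 (0.0818), or CAC replicate 1 (0.0773), 2 (0.0818), 3 (0.0580), 4 (0.104) or 5 (0.0552). Without the 3 CAC libraries with uroplakins, which leaves 2, the change was -0.96 (adjusted p = 0.826).

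At 8 weeks Cox4i2 ranged from 2.08 to 6.12 TPM in CAC (median 3.07) and read 6.86, 6.40, 5.53, 5.74 and 5.50 TPM in Con. Of the 7 CAC libraries, 6 lay below all of Con, with a difference of -0.74 (SE 0.19, adjusted p = 0.0563). Replicate 3 held the highest value of its group, and without it the difference was -0.87 (adjusted p = 0.00935). Against NCAC the difference was -0.84 (SE 0.21, adjusted p = 0.0862), and it passed without CAC replicate 3 (0.0146) or NCAC replicate 3 (0.0272). At 4 weeks the difference from Con was -0.57 (SE 0.24, adjusted p = 1.00), and 3 of 5 CAC libraries lay below all of Con.

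Ndufa4l2 (chromosome 10, 127514967 to 127517154) encodes a paralog of Ndufa4 that is induced by the hypoxia factor HIF-1. Ndufa4 was named for complex I and is now counted with complex IV. At 8 weeks Ndufa4l2 ranged from 5.33 to 9.92 TPM in CAC (median 8.78) and read 20.3, 21.9, 10.4, 12.7 and 16.8 TPM in Con. All 7 CAC libraries lay below all Con libraries, and the gene fell by 0.91 (SE 0.22, adjusted p = 0.0390). Within CAC it also fell between 2 weeks (18.1 ± 4.87 TPM, n = 5) and 8 weeks (8.13 ± 1.90 TPM, n = 7), by 1.05 (SE 0.22, adjusted p = 0.0476), where 0.796% of all genes were called and 0.192% were lower. This was the 1 member called in that comparison, in which 31 of 80 lay above 0 beside 44.4% of all genes. Without adjustment 2 members were higher and 11 lower at a p under 0.05, beside 8.04% and 7.1% of all genes. Both results use the same CAC libraries of 8 weeks.

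The size of the fall against Con at 8 weeks stayed between -1.06 and -0.80 in the 12 fits that left out 1 library. It remained called without Con replicate 3 (adjusted p = 0.0240) or CAC replicate 1 (0.0440) or 3 (0.0322). It was lost without Con replicate 1 (0.0764), 2 (0.0880), 4 (0.0552) or 5 (0.0854), or CAC replicate 2 (0.0603), 4 (0.0725), 5 (0.0580), 6 (0.0771) or 7 (0.0807). The fall within CAC remained called without replicate 3 of 2 weeks (0.0236) or replicate 3 of 8 weeks (0.0270). It was lost without replicate 1 (0.144), 2 (0.109), 4 (0.101) or 5 (0.116) of 2 weeks, or replicate 1 (0.0861), 2 (0.0771), 4 (0.10), 5 (0.0742), 6 (0.104) or 7 (0.0770) of 8 weeks. Without the libraries with uroplakins the changes were -0.87 (adjusted p = 0.213) and -0.75 (adjusted p = 1.00).

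At 6 weeks Ndufa4l2 read 8.66, 6.89, 10.7, 5.50 and 7.03 TPM in CAC and 13.3, 10.2, 10.3, 20.9 and 16.9 TPM in Con, a difference of -0.79 (SE 0.23, adjusted p = 0.258). Against NCAC the differences were -0.78 at 4 weeks (SE 0.26, adjusted p = 0.981), where all 5 CAC libraries lay below all NCAC libraries, -0.60 at 6 weeks (SE 0.24, adjusted p = 0.149) and -0.64 at 8 weeks (SE 0.22, adjusted p = 0.158). The 8-week value passed without NCAC replicate 3 (-0.81, adjusted p = 0.0280). At 2 weeks CAC and Con stood at 18.1 ± 4.87 and 18.3 ± 4.91 TPM for Ndufa4l2, and at 8.35 ± 2.53 and 7.98 ± 1.97 TPM for Cox4i2.

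The change of the CAC effect from 2 to 8 weeks was -0.90 (adjusted p = 0.464) for Ndufa4l2 and -0.78 (adjusted p = 0.498) for Cox4i2. No member was called in that test of the difference, beside 0.0549% of all genes. Of the 80, 34 lay above 0 beside 31.6% of all genes. At an unadjusted p under 0.05 it held 1 member higher and 6 lower, beside 3.76% and 5.58% of all genes. Within Con between 2 and 8 weeks 0 members and 0% of genes were called by limma, with 0 members higher and 1 lower at an unadjusted p under 0.05, beside 2.79% and 1.08% of all genes. Of the 80, 24 lay above 0 there, beside 77.3% of all genes. Cox4i2 within CAC differed by -1.11 between the same times (SE 0.25, adjusted p = 0.0559), and passed without replicate 3 of 2 weeks (0.0282) or of 8 weeks (0.0142).

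Their ubiquitous paralogs had means at or above those of Con. Cox4i1 averaged 1037 ± 50.0 TPM in CAC and 782 ± 167 TPM in Con at 6 weeks, a difference of 0.44 (SE 0.18, adjusted p = 0.467) with all 5 CAC libraries above all of Con. At 8 weeks the difference was 0.29 (SE 0.14, adjusted p = 0.246). Ndufa4 differed by 0.18 (SE 0.13, adjusted p = 0.792) at 6 weeks and by 0.01 at 8 weeks, with an interval from -0.34 to 0.36. Cox4i2 accordingly made up 0.325% ± 0.037 of the Cox4 transcripts in CAC at 6 weeks and 0.984% ± 0.304 in Con. At 8 weeks it made up 0.361% ± 0.158 and 0.795% ± 0.156. Ndufa4l2 took 2.16% ± 0.665 of the Ndufa4 pair in CAC at 8 weeks and 4.24% ± 1.28 in Con. Both paralog shares are small, so the falls changed the summed level of either pair little.

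Both genes are also known from pericytes and smooth muscle of small vessels (mural cells). A list of 8 mural cell genes without them, chosen after their values were seen, summed to between 336 and 458 TPM in CAC and between 292 and 591 TPM in Con at 6 weeks. At 8 weeks the sums ran from 258 to 462 and from 333 to 675 TPM. The mean sums in CAC and Con were 404 and 451 TPM at 6 weeks, and 363 and 514 TPM at 8 weeks. Of the 8, 5 had a higher mean in CAC than in Con at 6 weeks (median 0.12) and 3 at 8 weeks (median -0.25), and none was called. Of 14 tested hypoxia-induced genes, chosen in the same way, 7 lay above 0 against Con at either time (medians -0.01 and 0.05) and none was called. Against NCAC at 6 weeks the mural cell genes Cspg4 (1.24, adjusted p = 0.00397, limma) and Abcc9 (0.90, adjusted p = 0.0230) rose. So did the hypoxia-induced Vegfa (0.80, adjusted p = 0.0119) and Ldha (0.68, adjusted p = 0.0205), beside 4.94% of all genes called higher. No gene of these kinds was called lower there. The 8 mural cell genes summed to 404 ± 47.9 TPM in CAC and 360 ± 165 TPM in NCAC at 6 weeks. Fibroblast and progenitor markers were lower in CAC than in Con: 0 of 8 lay above 0 at 6 weeks (median -1.32, none called) and 0 of 8 at 8 weeks (median -1.55), where 5 fell (Dpt, Fbn1, Mfap5, Lum and Col1a1). The part of any of these lists in the falls was not tested.

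**Figure D3:**
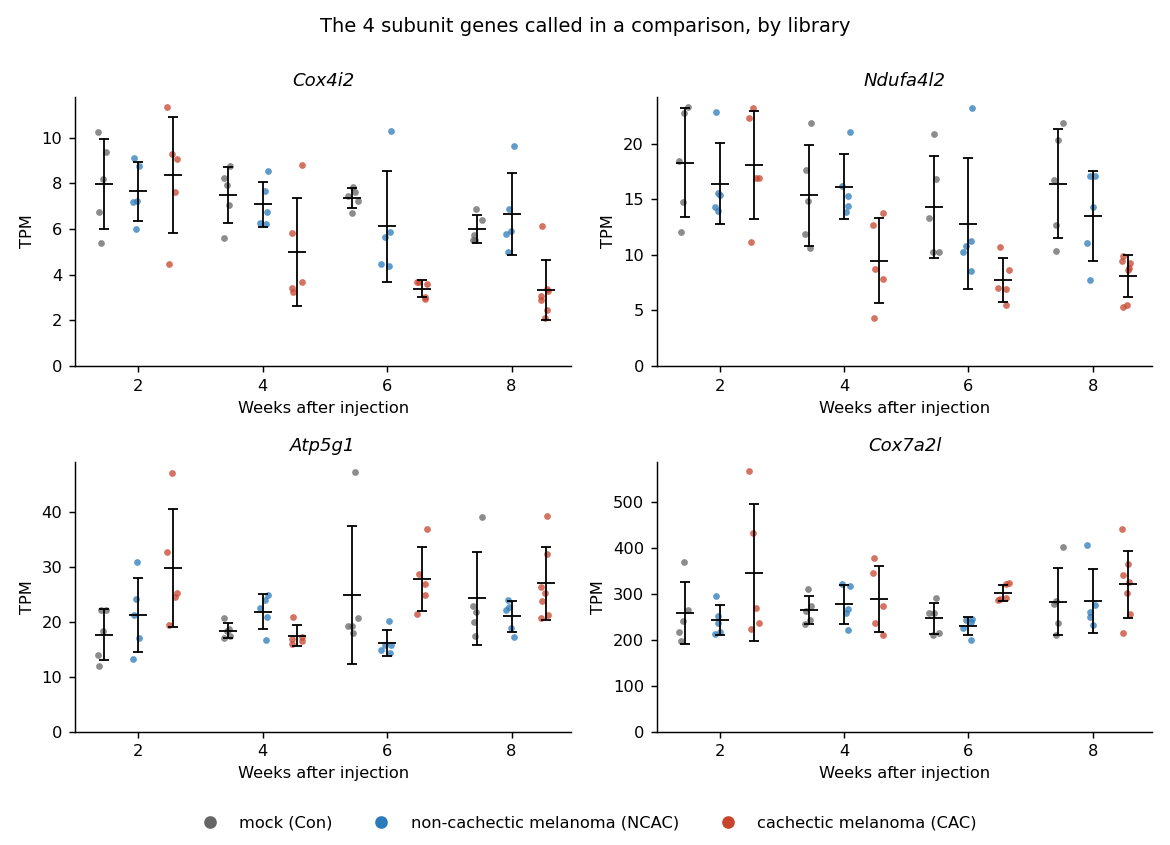
TPM of the 4 members called in any comparison, in each of 62 libraries (points) by week and arm, with the mean and SD of each group (black). Cox4i2 and Ndufa4l2 are at a like level in all arms at 2 weeks and lowest in CAC from 4 weeks on, with means of 3.38 TPM (Cox4i2) and 7.76 TPM (Ndufa4l2) at 6 weeks.

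The second comparison sets cachectic against non-cachectic melanoma. At 6 weeks 65 of 80 members lay above 0, with a median of 0.14, and 67.2% of all genes did so, with a median of 0.13. Of the 80, 2 rose (Atp5g1 and Cox7a2l) and none fell, beside 5.78% of all genes called and 4.94% called higher. Before adjustment 19 members were higher and 4 lower at a p under 0.05, beside 21.4% and 4.87% of all genes. This balance depended on the scaling of the libraries. With the mitochondrially encoded genes left out before rescaling, the median of all genes moved from 0.13 to -0.02, 34 of 80 members lay above 0, and 1 rose and 3 fell. With median-ratio rescaling the count was 35 of 80, again with 1 risen and 3 fallen. Cox4i2 fell under both scalings (-0.85 and -0.78) and so did Cox6b2, a complex IV isoform best known from testis.

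Atp5g1 (chromosome 11, 96068852 to 96075670) is 1 of 3 genes that encode the same mature subunit c, the ring of ATP synthase that protons turn. At 6 weeks it read 37.0, 24.9, 28.7, 27.0 and 21.5 TPM in CAC and 15.8, 20.1, 15.7, 14.9 and 14.3 TPM in NCAC. All CAC libraries lay above all NCAC libraries, and Atp5g1 rose by 0.74 (SE 0.15, adjusted p = 0.0199). The call held in 9 of the 10 fits that left out 1 library and was lost without NCAC replicate 4 (0.71, adjusted p = 0.0547). Without the uroplakin libraries the change was 0.76 (adjusted p = 0.143), and under both rescalings Atp5g1 still rose (0.57 and 0.58).

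The other genes for subunit c differed less. Atp5g2 averaged 210 ± 11.7 TPM in CAC and 172 ± 13.4 TPM in NCAC, a difference of 0.29 (SE 0.10, adjusted p = 0.0873), and Atp5g3 423 ± 41.3 and 390 ± 94.3 TPM, a difference of 0.15 (SE 0.16, adjusted p = 0.602). Atp5g3 supplied between 61.0% and 67.5% of the summed TPM of the 3 genes by group and Atp5g1 between 2.86% and 4.83%. The 3 genes are paralogs, and how reads shared between them were counted is not given in the sources used here. Against Con at 6 weeks Atp5g1 differed by 0.23 (SE 0.26, adjusted p = 0.894), where Con replicate 5 stood at 47.4 TPM and the other 4 Con libraries between 18.0 and 20.7 TPM. At 8 weeks it differed from Con by 0.17 (SE 0.21, adjusted p = 0.716).

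Cox7a2l (chromosome 17, 83501918 to 83517330) encodes a relative of Cox7a2 that joins complexes III and IV into supercomplexes. At 6 weeks it read 323, 320, 289, 290 and 285 TPM in CAC and 243, 238, 245, 225 and 199 TPM in NCAC. The groups did not overlap, and Cox7a2l rose by 0.39 (SE 0.10, adjusted p = 0.0451). The call remained without NCAC replicate 3 (adjusted p = 0.0325). It was lost without NCAC replicate 1 (0.0700), 2 (0.104), 4 (0.0960) or 5 (0.0602), or CAC replicate 1 (0.114), 2 (0.108), 3 (0.0569), 4 (0.0896) or 5 (0.0649). It was also lost under both rescalings (0.21 and 0.23, adjusted p = 0.209 and 0.189) and without the uroplakin libraries (0.33, adjusted p = 0.531). Cox7a2 itself averaged 434 ± 38.5 and 382 ± 28.3 TPM. Against Con, Cox7a2l differed by 0.30 (SE 0.13, adjusted p = 0.515).

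Markers of other cell types also differed between CAC and NCAC at 6 weeks. All 10 skeletal muscle markers had a higher mean in CAC (median 2.14) and Myh4 rose. All 7 urothelial markers were higher (median 3.64) and 3 rose. Of 5 endothelial markers 4 were higher (median 0.58) and 2 rose, Emcn and Tek. The mural cell genes Cspg4 and Abcc9 rose too, and the fibroblast marker Fbn1 fell (-1.93, adjusted p = 0.0367, limma). Of all genes 5.78% were called in either direction and 4.94% were called higher. The part of any of these cell types in the rises of Atp5g1 and Cox7a2l was not tested.

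At 8 weeks 55 of 80 members were higher in CAC than in NCAC, against 45.2% of all genes, with medians of 0.10 and -0.03. By limma 0 members were called, beside 0.528% of all genes, and 10 were higher and 3 lower at an unadjusted p under 0.05, beside 5.95% and 10.1% of all genes. The count of calls changed with single libraries. Without NCAC replicate 3, 8 of 80 members were called, 6 higher and 2 lower, beside 8.6% of all genes. Without CAC replicate 3, 2 members were called, beside 2.78% of all genes.

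The minor muscle isoform showed a different pattern. Cox6a2, the subunit 6a of heart and skeletal muscle, was at or near 0 in most libraries and high in a few. It read 23.2, 0, 61.5, 5.36 and 0.420 TPM in Con at 6 weeks and 0, 52.1, 0.0925, 1.80 and 0.0792 TPM in CAC at 4 weeks. Acta1 read 570.2, 2.66, 1615, 120.4 and 23.0 TPM in the same Con libraries, and 1.12, 1276, 23.2, 23.7 and 2.78 TPM in the same CAC libraries, so the highest library was the same for both genes in each group. The ubiquitous Cox6a1 averaged 672 ± 93.1 TPM in Con at 6 weeks and 935 ± 182 TPM in CAC. Cox6b2 read 5.48 ± 1.06 TPM in CAC and 9.92 ± 4.49 TPM in Con at 6 weeks, a difference of -0.68 (SE 0.25, adjusted p = 0.411), beside 866 ± 94.1 and 704 ± 107 TPM of Cox6b1.

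The isoforms of thermogenic and muscle tissue that the naming rule leaves out, Cox7a1 and Cox8b, varied widely between libraries. Cox7a1 averaged 75.6 ± 42.1 TPM in CAC and 18.2 ± 20.6 TPM in NCAC at 8 weeks and rose by 2.35 (SE 0.46, adjusted p = 0.0455). Cox8b averaged 297 ± 128 and 142 ± 68.7 TPM, and Ucp1 428 ± 322 and 102 ± 209 TPM. At 6 weeks Ucp1 averaged 655 ± 580 TPM in CAC and 391 ± 740 TPM in Con. Its SD exceeded its mean in Con at 6 and 8 weeks and in NCAC at 8 weeks.

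Thermogenic adipocyte markers also differed between the arms. All 8 (Ucp1, Cidea, Dio2, Elovl3, Ppargc1a, Otop1, Kcnk3 and Cpt1b) had a higher mean in CAC than in Con at 6 weeks (median difference 1.73), and 0 of 8 were called. In CAC against NCAC at 8 weeks all 8 were higher (median 2.63) and 2 rose, Cpt1b and Cidea. The summed level of the 8 ran from 638 to 2863 TPM in CAC and from 18.5 to 2952 TPM in Con at 6 weeks, and none was at 0 in every library. In 7 of the 12 groups the library lowest in the mean log2 level of these markers also had the lowest sum of the 80 members, and in 7 of 12 the highest library was the highest in both. The library lowest in mitochondrially encoded share likewise had the lowest member sum in 7 of 12 groups. With the thermogenic marker level as a covariate, 63 of 80 members lay above 0 in CAC against Con at 6 weeks (median 0.13, all genes 0.25), with Cox4i2 still called (-0.91, adjusted p = 0.0100). In CAC against NCAC at 8 weeks 27 of 80 lay above 0 (median -0.05, all genes 0.01). Ndufa4l2 at 8 weeks and Atp5g1 and Cox7a2l at 6 weeks were no longer called, with changes of -0.79, 0.70 and 0.38 (adjusted p = 0.137, 0.0572 and 0.108). Ndufa4l2 within CAC between 2 and 8 weeks was not called either (-0.52, adjusted p = 0.850).

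**Figure D4:**
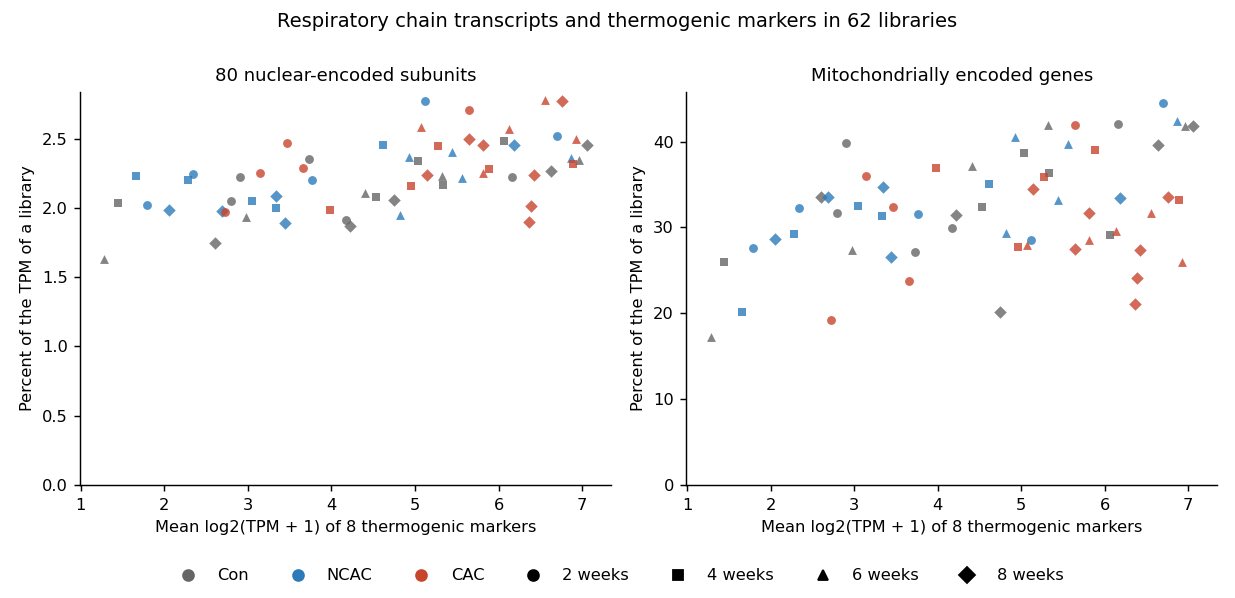
Share of the TPM of each of 62 libraries taken by the 80 nuclear-encoded subunits (left) and by mitochondrially encoded genes (right) against the mean log2(TPM + 1) of 8 thermogenic markers, with arm by colour and week by shape. The nuclear share runs from 1.63% to 2.78%, and the lowest library on both axes of the left panel is Con replicate 5 of 6 weeks.

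The mitochondrially encoded subunits took a lower mean share of the TPM in CAC than in both other arms at 2, 6 and 8 weeks, and a higher one at 4 weeks. The 13 genes took from 17.2% to 44.4% of the TPM of a library, and the other mitochondrial genes were listed at 0. At 6 weeks they took 28.7% ± 2.11 in CAC, 33.1% ± 10.7 in Con and 37.0% ± 5.50 in NCAC. At 8 weeks the shares were 28.5% ± 4.96, 33.3% ± 8.49 and 31.4% ± 3.56. At 4 weeks they were 34.6% ± 4.37, 32.5% ± 5.18 and 29.6% ± 5.72, and at 2 weeks 30.7% ± 9.15, 34.1% ± 6.48 and 32.9% ± 6.77. Against NCAC at 6 weeks, 0 of 13 lay above 0 (median -0.48), and 3 fell. Of all genes 5.78% were called in either direction, most of them higher (4.94% of all). These were the complex I subunits mt-Nd2 (-0.70), mt-Nd3 (-0.78) and mt-Nd4l (-0.64). Against Con, 3 of 13 lay above 0 at 6 weeks (median -0.16) and 0 of 13 at 8 weeks (median -0.19), and none was called. The summed TPM of the 13 was 11.4 ± 0.865 times that of the 80 members in CAC, 15.8 ± 3.42 times in Con and 16.4 ± 1.85 times in NCAC at 6 weeks. At 8 weeks the ratios were 12.4 ± 1.48, 16.1 ± 3.63 and 15.1 ± 1.56, and at 4 weeks 15.5 ± 2.32, 14.7 ± 2.31 and 13.6 ± 2.79. At 2 weeks single libraries ran from 9.80 to 16.0 in CAC, from 11.5 to 18.9 in Con and from 10.3 to 17.7 in NCAC. This ratio does not change with the scaling of a library, and at 6 weeks all 5 CAC libraries (10.4 to 12.7) lay below all NCAC libraries (13.8 to 18.0).

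Since all genes share 1 fixed sum, a lower mitochondrial share raises the TPM of every nuclear gene. As a share of nuclear TPM alone, the 80 members took 3.57% ± 0.34 in CAC, 3.18% ± 0.86 in Con and 3.62% ± 0.52 in NCAC at 6 weeks. At 8 weeks they took 3.25% ± 0.60, 3.18% ± 0.75 and 3.04% ± 0.42. On this scale CAC and NCAC at 6 weeks differed by less than their SD. With the mitochondrial genes left out, the median difference between CAC and Con was 0.17 at 6 weeks (71 of 80 above 0, all genes -0.12) and 0.02 at 8 weeks (45 of 80, all genes -0.18). Cox4i2 at 6 weeks and Ndufa4l2 at 8 weeks fell on this scale too (-1.08 and -1.04), and Cox4i2 fell at 8 weeks as well (-0.88, adjusted p = 0.0184).

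Other mitochondrial gene lists give the setting. Of 17 citric acid cycle genes, 17 lay above 0 in CAC against Con at 6 weeks (median 0.32) and 14 at 8 weeks (0.20), and against NCAC 16 (0.28) and 17 (0.43), with none called. Of 45 tested assembly factors, which build the complexes without staying in them, 30 and 25 lay above 0 against Con (medians 0.08 and 0.01). Against NCAC they counted 25 and 24, and 1 rose at 6 weeks: Cox10, needed to make the haem of complex IV, by 0.60 (SE 0.15, adjusted p = 0.0390). Of 14 mobile carriers and ADP/ATP exchangers, 10 lay above 0 against both arms at 6 weeks (medians 0.11 and 0.19). There Slc25a5, an ADP/ATP carrier, rose against NCAC by 0.63 (SE 0.11, adjusted p = 0.00984), from 400.3 ± 42.9 to 619 ± 26.9 TPM. Of 16 regulators of mitochondrial biogenesis, 12 lay above 0 against Con and 15 against NCAC at 6 weeks (medians 0.12 and 0.26). Of 16 genes of mitochondrial translation, 11 and 14 did (0.05 and 0.13), and none of either list was called.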

How the data were processed

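RNA of white adipose tissue was extracted with Trizol and sequenced from TruSeq stranded mRNA libraries, per the labels' protocols. The authors deposited 1 table of TPM for 62 libraries, with mm10 as the genome build according to the processing notes of the submitters. Aligner, counter and annotation are not given there, and read depth is unknown. No column belonged to another series (0).

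Differences were tested with limma 3.58.1 (R 4.3.3; trend and robust variance) on log2(TPM + 1) in the libraries of the groups compared, over genes averaging 0.5 TPM or more. P-values were adjusted by Benjamini-Hochberg over all genes, with 0.05 as the threshold of a call. This scale understates changes of low genes. The p-values measure the spread between these samples. Sums and shares were computed with pandas 2.3.3. The fit was tested on simulated data.

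The members and lists were chosen with earlier results of these data known, and the mural cell and hypoxia lists after these values were seen. Named members are the highest of each complex, those with the largest difference between CAC and Con at 6 and 8 weeks in each complex, the called members, the succinate dehydrogenase subunits, isoform pairs, and the members with the largest and smallest spread of group means. Alternatives were another pseudocount, other filters, 1 fit over all libraries, library weights, a replicate block, 2 rescalings, a thermogenic covariate, and leaving out libraries. A result that the naming rule would give is not reported here.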

Additional observations from a re-analysis of the deposited data

Results flagged for a closer look

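In 18 of 144 tests (12 measures in 12 groups) 1 library stood far from the others of its group, where chance gives about 1 in 20. NCAC replicate 3 at 6 weeks was lowest in the complex III sum (2334 TPM, next 3052) and the complex V sum (4937, next 5734), and highest in Cox4i2 (10.28, next 5.854) and Ndufa4l2 (23.23, next 11.21). CAC replicate 2 at 6 weeks was lowest in the complex V sum (5980 TPM, next 6651), and CAC replicate 5 at 8 weeks highest in the complex II sum (1738, next 1390). CAC replicate 3 at 8 weeks was highest in Cox4i2 (6.115 TPM, next 3.353) and Cox6a2 (13.12, next 4.574). Ndufa4l2 was high in NCAC replicate 2 at 2 weeks (22.83 TPM, next 15.56).

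Atp5g1 was high in CAC replicate 4 at 4 weeks (20.9 TPM, next 17.24), Con replicate 5 at 6 weeks (47.37, next 20.73), NCAC replicate 2 at 6 weeks (20.09, next 15.79) and Con replicate 2 at 8 weeks (39.09, next 23). Cox7a2l was high in NCAC replicate 1 at 8 weeks (406.3 TPM, next 275.3). Cox6a2 was high in NCAC replicate 1 at 4 weeks (9.256 TPM, next 1.178), CAC replicate 2 at 4 weeks (52.09, next 1.802), Con replicate 2 at 8 weeks (12.11, next 1.724) and NCAC replicate 3 at 8 weeks (4.254, next 0.2617).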

How the results depend on the processing

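Of 432 alternative values of gene changes, 361 kept their direction and side of the threshold, 24 lost the call, 38 gained it, 9 moved and 0 reversed. A change that was not called and stayed so counts as kept. Apart from leaving out 1 library, each of the 5 calls had 10 alternatives. Cox4i2 stayed called in 7, Ndufa4l2 in 6 against Con and 6 within CAC, Atp5g1 in 8 and Cox7a2l in 3. Counts of called members moved too. With library weights the calls, each with the share of all genes called, were 15 (4.6%) in CAC against Con at 2 weeks, 30 (18.9%) at 6 weeks and 4 (10%) at 8 weeks. They were 2 (1.58%) and 11 (7.4%) in NCAC against Con at 2 and 6 weeks, and 12 (22.7%) and 29 (21%) in CAC against NCAC at 6 and 8 weeks. They were 5 (15.4%) within CAC and 1 (2.44%) within Con between 2 and 8 weeks, and 4 (5.33%) in the change of the CAC effect. The fit over all 62 libraries called 3 (1.27%) in CAC against Con at 6 weeks and 3 (6.76%) at 8 weeks, 1 (3.81%) and 3 (4.19%) in CAC against NCAC at 6 and 8 weeks, and 11 (10.3%) within CAC. A minimum of 5 TPM left 0 (0.397%) in CAC against Con at 6 weeks. With no filter CAC against NCAC at 6 weeks held 1 (2.52%), and CAC against Con at 8 weeks and CAC over time held 0 (1.01% and 0.108%). Without mitochondrially encoded genes the counts were 4 (4.59%) in CAC against NCAC at 6 weeks, 2 (14.2%) in CAC against Con at 8 weeks and 2 (1.97%) within CAC, and with median-ratio rescaling 4 (6.85%) in CAC against NCAC at 6 weeks and 2 (4.32%) within CAC. The thermogenic covariate left 0 in CAC against NCAC at 6 weeks, CAC against Con at 8 weeks and within CAC (1.96%, 0.24% and 0%). Without the uroplakin libraries 0 were called in CAC against Con at 6 and 8 weeks, CAC against NCAC at 6 weeks and within CAC (0.0892%, 0.0137%, 0.425% and 0%), with fewer samples. The cause of the other shifts was not tested.

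Leaving out 1 library gave 0 to 1 called members in CAC against Con at 6 weeks, 0 to 3 in CAC against NCAC at 6 weeks, 0 to 2 in CAC against Con at 8 weeks, 0 to 8 in CAC against NCAC at 8 weeks and 0 to 2 within CAC. In CAC against NCAC at 8 weeks the share of all genes called moved along with the count, as given above. For the other comparisons that share is not given, so these ranges are not a result about the members. In no comparison did all 5 same-numbered pairs of libraries deviate together (a correlation over 0.1 in up to 4 of 5). The labels do not state that a number pairs animals, and these correlations cannot exclude a pairing. With the replicate block 0 members were called in CAC against Con at 6 and 8 weeks and within CAC (0.0618%, 0.206% and 0% of all genes), and 1 (5.59%) in CAC against NCAC at 6 weeks. Read depth is unknown, so no limit from counting can be given.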
